A study of Drosophila melanogaster with 14 samples.

Results

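The unplaced sequence U of the Drosophila melanogaster dm3 genome build was examined across 8 ovary libraries. U joins fragments that the build assigns to no chromosome arm, so a position on U is an address in the build and not a place on a chromosome. Its members were all 1-kb bins that the deposited files list under U, 10050 of the 168744 bins of the genome. One of them, the bin that follows U:5300001-5301000, was reported apart because it took up to 10.4% of all reads of a library; it is called the abundant bin. Of the 10050 bins, 8597 held no read in any of the 8 libraries, 1131 held 1 to 9 reads over the 8 libraries, and 322 held at least 10. Ratios of single bins are given for these 322. The threshold itself cut through a continuous range, with 57 bins at 8 or 9 reads just outside it and 43 bins at 10 or 11 reads just inside it. A bin is named below by its first base. The build gives U no annotation in the deposited files, so no bin is assigned to a gene, exon or transposon.

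Cutoff is a nuclear protein of the germline that binds, with its partners Rhino and Deadlock, the chromatin of piRNA clusters that are transcribed from both strands. There it is known to protect nascent transcripts from 5′ end processing, termination and splicing, so that long precursors of piRNAs are made. The piRNAs guide Piwi proteins to silence transposable elements, and most heterochromatin, from which unplaced scaffolds such as U largely come, is dense in old copies of those elements. Ovaries hold germline nurse cells and oocytes together with somatic follicle cells.

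All flies were 3 to 14 days old, and whole ovaries were the tissue in each library. All carried the driver P{GAL4::VP16-nos.UTR}CG6325MVD1, in which nanos sequences express GAL4 in the germline, so somatic cells of the ovary were not targeted. For total and poly(A) RNA the control had the hairpin TRiP.HMS00017 against white, an eye colour gene (shWhite), and the knockdown the hairpin TRiP.GL00054 against Cutoff (shCuff), both inserted at attP2. For nuclear run-on the shCuff genotype was set against w[1118] flies with the driver and no hairpin. Each knockdown and each control was thus 1 line. Lines can differ in their repeated, unplaced sequence, and such a difference and the knockdown cannot be told apart in any comparison below. The labels do not say whether libraries of one group came from separate flies, so p-values reflect a spread between libraries that may be technical. Whole ovaries were used, so fewer cells of a type and less RNA per cell cannot be told apart either.

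Total RNA (depleted of ribosomal RNA) had 2 libraries a group, one in each of 2 library sets, and each group had 1 library of poly(A) RNA or of run-on. Run-on captures the RNA that engaged polymerases extend in isolated nuclei. The libraries held 2438630 to 10932667 reads. Levels are in RPM, reads per 1000000 reads of the library, and intervals are exact conditional 95% intervals of counting error alone. One library stood apart: in total RNA, 29.66% of the covered U bins outside a 14-kb stretch described below held only 1 to 3 reads in shCuff replicate 2, against 94.59%, 78.35% and 86.55% in shWhite replicate 1, shCuff replicate 1 and shWhite replicate 2. Over the whole genome the share was 8.37% in that library, against 44.4%, 40.29% and 35.74% in the same order, so the difference was a trait of the library and not of U. Values with and without its pair are therefore given side by side.

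Reads of U fell into 3 portions that behaved differently. The abundant bin held most of them, the 13 covered bins that run up to it from U:5288001, with which it forms a stretch of 14 kb, held most of the remainder summed over the libraries, and 10036 bins outside that stretch held 22888 reads over the 8 libraries. Total RNA replicate 2 was the exception, with 1532 and 1574 reads of shWhite and shCuff in the 13 bins and 2049 and 3484 outside the stretch. Outside the stretch, U held 312.4 RPM in shWhite and 412.8 RPM in shCuff of total RNA replicate 1, and 360.2 and 474.4 RPM in replicate 2. Poly(A) RNA held 142.1 RPM in shWhite and 252.8 RPM in shCuff. Run-on held 1341 RPM in the control and 3132 RPM in shCuff. The level outside the stretch was higher in shCuff than in its control in all 4 comparisons. The share of reads from U outside the stretch was several times larger in run-on than in either kind of RNA.

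The corresponding ratios of shCuff to control were 1.32 (1.216 to 1.436) in total RNA replicate 1, 1.32 (1.247 to 1.392) in replicate 2, 1.78 (1.662 to 1.906) for poly(A) RNA and 2.34 (2.242 to 2.434) for run-on. In edgeR's quasi-likelihood test over the 4 total RNA libraries, fitted together with 10-kb windows of the other arms, this sum had a log2 change of 0.40 (SE 0.22) and an adjusted p of 0.737, so a change in total RNA was not called. With the stretch kept and only the abundant bin left out, edgeR gave 0.05 (SE 0.40) and an adjusted p of 0.973, and the stretch decides that value. The stretch was set apart after its values were seen. For comparison, the euchromatic arms together had ratios of 0.975, 1.02, 1.01 and 0.977 in the same order. Uextra, the other unplaced sequence of the build, had ratios of 2.01, 6.74, 3.87 and 2.67.

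**Figure D1:**
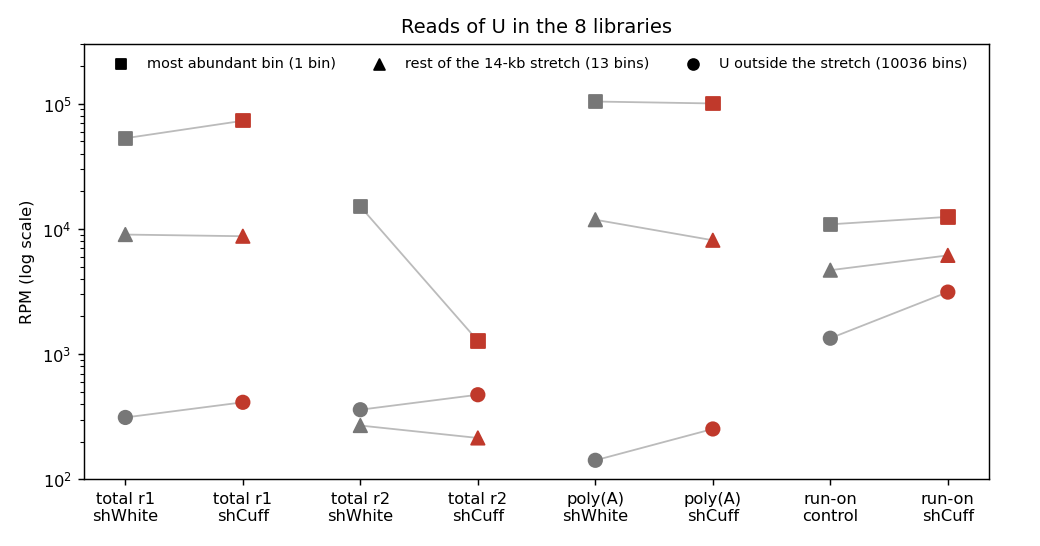
RPM (log axis) of the most abundant bin, of the other 13 bins of the 14-kb stretch and of the 10036 bins of U outside the stretch, for each of the 8 libraries; a grey line joins the control and the shCuff library of a comparison. U outside the stretch lies higher in shCuff in each comparison, from 1.32-fold in total RNA to 2.34-fold in run-on, while the abundant bin is at 15099 and 1277 RPM in total RNA replicate 2 and differs far less in the other comparisons.

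Coverage was not wider in shCuff. Outside the stretch, reads lay in 499 bins in shWhite and 254 in shCuff of total RNA replicate 1, in 275 and 118 bins in replicate 2, in 201 and 194 bins in poly(A) RNA, and in 630 and 478 bins in run-on. Over the whole genome the same libraries covered 37117 and 36570, 45529 and 34705, 33774 and 36662, and 71294 and 70612 bins, so in replicate 2 fewer bins were covered in shCuff outside U as well. On U, fewer bins thus held more reads in shCuff in every comparison. The 309 bins with at least 10 reads held 87.0% of the reads outside the stretch. Summed over these 309, the ratio was 2.17 and 1.46 in the total RNA replicates, 1.93 for poly(A) RNA and 3.26 for run-on. The 1130 bins with 1 to 9 reads went the other way, with ratios of 0.334 (0.2749 to 0.4034) and 0.153 (0.1085 to 0.2112) in total RNA, 0.719 (0.5668 to 0.9118) for poly(A) RNA and 0.576 (0.5225 to 0.6341) for run-on. Bins with 1 to 9 reads on all other arms had ratios of 0.779, 0.508, 1.13 and 0.908, and those on the heterochromatic scaffolds and Uextra 0.611, 0.189, 1.36 and 0.582. A class bounded by its reads over all 8 libraries cannot hold bins with many reads in either genotype, and the part of that bound in these ratios was not tested. In turn, a bin could enter the 309 through its shCuff run-on reads alone. Of the 309, 146 held at most 3 reads over the 6 RNA libraries. The ratios of the 309 are thus a description of bins that passed the filter.

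The abundant bin dominated U and did not move in one direction. It held 53024 RPM in shWhite and 73113 RPM in shCuff of total RNA replicate 1, and 15099 and 1277 RPM in replicate 2. In poly(A) RNA it held 104140 RPM in shWhite and 100497 RPM in shCuff, and in run-on 10887 RPM in the control and 12489 RPM in shCuff. Its 4 total RNA values thus ran from 1277 to 73113 RPM, both extremes being shCuff libraries, and the genotypes overlapped. The ratios were 1.38, 0.0846, 0.965 and 1.15, and edgeR gave a log2 change of -1.55 (SE 1.25, adjusted p = 0.763) when the bin was fitted with the 10-kb windows.

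The 13 bins beside it were also far above the rest of U. They held 9021 and 8749 RPM in shWhite and shCuff of total RNA replicate 1, but 269.3 and 214.3 RPM in replicate 2. Poly(A) RNA held 11848 and 8124 RPM there, and run-on 4686 and 6151 RPM. Both total RNA sets had ratios below 1 (0.970 and 0.796), as did poly(A) RNA (0.686), whereas run-on had 1.31. The difference between the total RNA sets was far larger than any difference between genotypes. The mitochondrial genome M, listed in the same files, held 30092, 30554, 3415 and 1088 RPM in total RNA (shWhite then shCuff of replicate 1, then of replicate 2). It held 34340 and 28282 RPM in poly(A) RNA and 20760 and 28615 RPM in run-on. The levels of M moved with those of the stretch between sets, and the part of mitochondrial RNA in the stretch was not tested.

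Within the stretch the level differed between neighbouring bins by orders of magnitude. The 8 next most abundant bins of U all lay there. U:5299001 had the highest mean level among them, with 4479 and 4550 RPM in shWhite and shCuff of total RNA replicate 1, 75.8 and 44.9 RPM in replicate 2, 4179 and 3495 RPM in poly(A) RNA, and 912.8 and 961.4 RPM in run-on. U:5291001 and U:5300001 were next, and the same 3 bins were the highest of U in the run-on control after the abundant bin. Between them, U:5296001, chosen after its values were seen, held 4 reads over the 8 libraries. U:5294001 held 888.7 and 527.0 RPM in total RNA replicate 1 and 2825 and 976.7 RPM in poly(A) RNA, yet no read in either replicate 2 library of total RNA. Bins of the stretch therefore differed between the library sets one by one, not by a common factor.

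U:5295001 was lower in shCuff in both total RNA replicates, at 516.1 against 162.4 RPM and 72.1 against 12.2 RPM. Its reads went from 1733 to 479 and from 410 to 90, poly(A) RNA had 4782 and 4444, and run-on had 562 in the control and 1208 in shCuff. The direction in run-on was thus opposite to that in total RNA. Over 27388 bins, edgeR gave it a log2 change of -2.10 (SE 0.50) with an adjusted p of 0.137, so it was not called. DESeq2 (adjusted p = 0.000571) and limma on log2(RPKM + 1) (adjusted p = 0.00522) did call it. So did edgeR with no filter on level (adjusted p = 0.03879) and with at least 10 reads over the 8 libraries (adjusted p = 0.03565). Without shWhite replicate 1 the edgeR log2 change was 0.27. That fit also dropped the term for the library set, so its value takes in the difference between the sets.

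**Figure D2:**
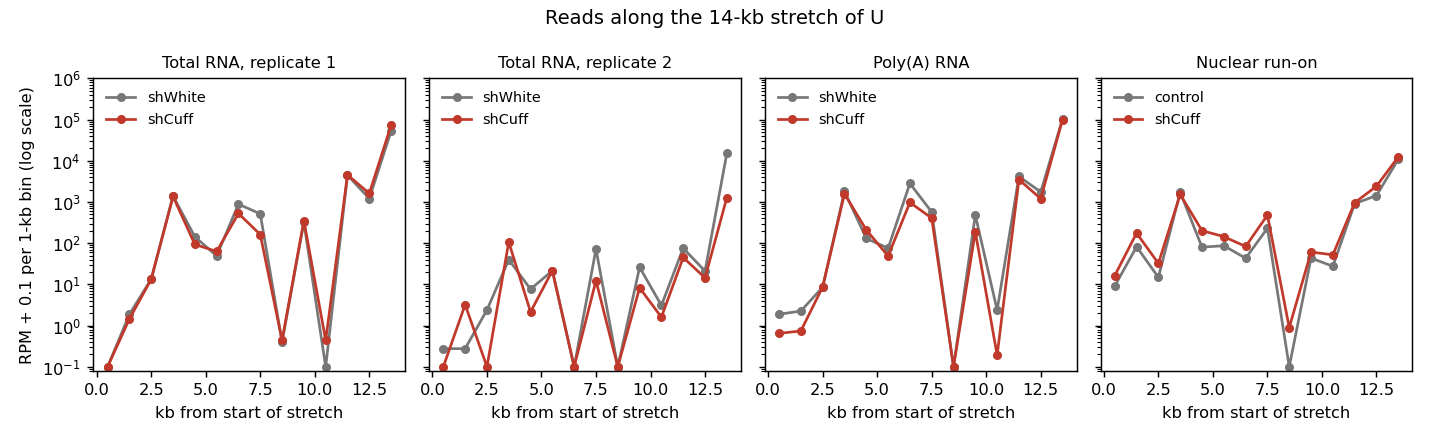
RPM + 0.1 per 1-kb bin (log axis) against distance in kb from the start of the 14-kb stretch of U, with 1 panel a comparison, grey for the control and red for shCuff. In every library the abundant bin at the right end is the highest; the other 13 bins together hold 269.3 and 214.3 RPM in total RNA replicate 2, against 4686 to 11848 RPM in the other panels.

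Outside the stretch, single bins were most often higher in shCuff in run-on. With 1 RPM added to each level, 165 of the 309 bins were at least 2-fold higher in shCuff (53.4%), against 22.0% of all 56644 bins of the genome with at least 10 reads. A high share was not particular to U. It was 56.8% on the heterochromatic scaffold 3RHet, 43.8% on Uextra and 35.7% on 2RHet. On 3LHet it was 22.2%, and on 2LHet, XHet and YHet together 16.5%. Another 43 of the 309 were at least 2-fold lower (13.9%, against 17.3%), and the median log2 ratio of the 309 was 1.31. Over all bins of U with at least 1 read, without the abundant bin, that median was 0. The filter of 10 reads counted these same run-on reads, so the shares and the median of 1.31 describe bins that passed it. In total RNA replicate 1, 47 bins were at least 2-fold higher (15.2%, against 5.70%) and 6 at least 2-fold lower (1.94%, against 1.81%). In replicate 2, 66 were higher (21.4%, against 19.1%) and 11 lower (3.56%, against 15.1%), so the share of higher bins there was near that of the genome. In poly(A) RNA, 21 bins were at least 2-fold higher (6.80%, against 1.28%) and none lower (against 0.726%). On Uextra and 3RHet the shares of higher bins were 16.9% and 16.2% in total RNA replicate 1, and 12.8% and 2.60% in poly(A) RNA. On 2RHet and 3LHet they were 5.03% and 3.43% in replicate 1, and 0.867% and 1.81% in poly(A) RNA. Medians of the log2 ratio over the 309 bins were 0 in both total RNA pairs and in poly(A) RNA, where most of them held no or few reads. With 1 RPM added, a bin can be 2-fold lower only where its control held at least 1 RPM. Of the 309 bins, 122, 154 and 178 held no read in either library of replicate 1, replicate 2 and poly(A) RNA. Another 77, 49 and 55 held reads in shCuff only. Of all covered U bins outside the stretch, also those under 10 reads, 94.59%, 86.55% and 88.06% held 1 to 3 reads, under 1 RPM, in shWhite of these. Many bins could thus not pass as lower in RNA, alone or in all 4 comparisons, so those shares cannot be set against the genome. Of the 309 bins, 5 passed 2-fold higher in all 4 comparisons (1.62%, against 0.0865%), namely U:295001, U:5630001, U:5945001, U:5946001 and U:7544001 (named after their values were seen), and none passed 2-fold lower in all 4 (against 0.0794%). In total RNA, both shCuff libraries lay above both shWhite libraries in 36 bins (11.7%, against 4.91%) and below them in 19 (6.15%, against 8.70%).

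**Figure D3:**
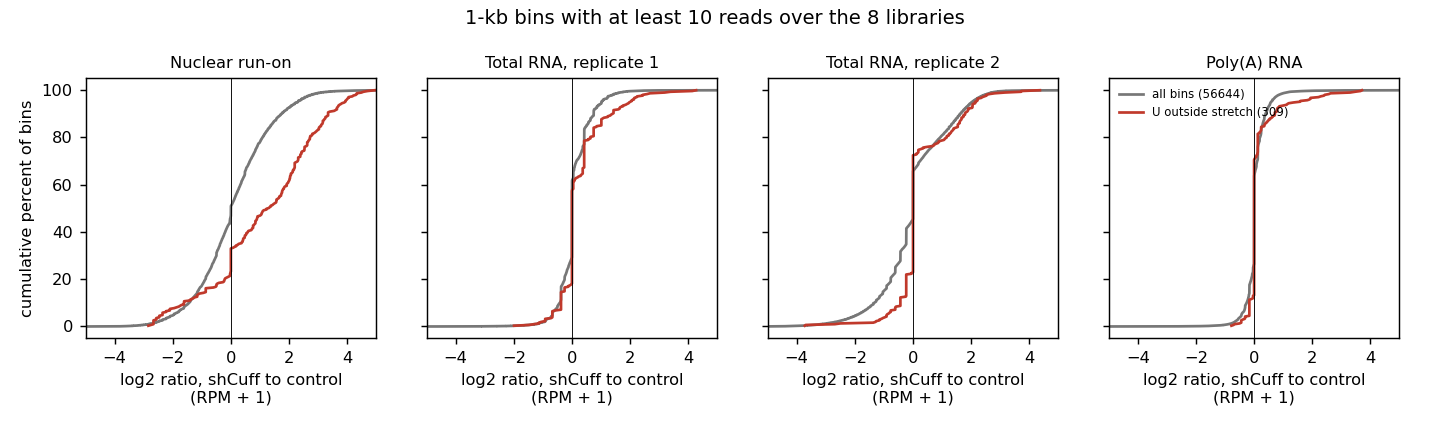
Cumulative percent of 1-kb bins by the log2 ratio of shCuff to control (levels in RPM + 1), for the 309 bins of U outside the stretch (red) and all 56644 bins of the genome with at least 10 reads (grey). In run-on the U curve is shifted to the right, with a median of 1.31. In total RNA replicate 1 and poly(A) RNA it leaves the genome curve mainly at ratios above 0. In replicate 2 it does so mainly below 0, where 3.56% of U bins and 15.1% of all bins were at least 2-fold lower. With 1 RPM added, a bin whose control held under 1 RPM cannot be 2-fold lower, so thin coverage limits that share on U.

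The edgeR test over all bins had 65 bins of U with a mean of at least 1 RPKM in total RNA, 53 of them outside the stretch. It called 1 of them higher and none lower, against 21 higher (0.0767%) and 8 lower (0.0292%) of 27388 bins tested. At an unadjusted p under 0.05, 9 of the 53 were higher (17.0%, against 2.04%) and 1 was lower (1.89%, against 2.58%). The median log2 change was 2.70 over the 53 bins, -0.36 over the 11 bins tested in the rest of the stretch and -0.02 over all bins. A bin could pass the level filter through its shCuff reads alone. Each of the 9 higher bins held no read in either shWhite library of total RNA. The shares of the 53 thus describe bins that passed the filter and are not evidence of a change of U. A fitted change of a bin with no control reads rests on edgeR's prior count, so the median of 2.70 is a description and not a measured fold.

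The called bin, U:5630001-5631000, was read in shCuff libraries only. It held 0 reads in shWhite and 13 in shCuff of total RNA replicate 1, 0 and 144 in replicate 2, 0 and 54 in poly(A) RNA, and 0 and 28 in run-on. No control library held a read of it, and no shCuff library lacked one. Against a floor of 3 reads in each control library, poly(A) RNA was at least 13.8-fold higher, run-on at least 9.06-fold higher, and the total RNA replicates at least 4.93-fold and 37.2-fold higher. The edgeR adjusted p was 0.0411. The call was lost with TMM factors (adjusted p = 0.574) and with limma on log2(RPKM + 1) (adjusted p = 0.0518). It was also lost with library totals without the abundant bin (adjusted p = 0.281) and without the term for the library set. With a filter of at least 10 reads over the 8 libraries the edgeR adjusted p was 0.00577. With each library left out the log2 change ran from 7.15 to 9.74, in fits that also dropped the term for the set. Those fits left 1 library in a group, so the range gives a size and does not show that the call held.

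Bins close by shared the pattern and are given for that reason, a choice made after their values were seen. The bin between U:5632001 and U:5634001 is not among them. U:5631001 held 0 reads in every control library, and 6, 89, 2 and 48 reads in shCuff of total RNA replicate 1, replicate 2, poly(A) RNA and run-on. U:5632001 held 0 in every control and 24, 35, 2 and 33 in shCuff. U:5634001, which was among the 3 highest run-on ratios of U, held 0 in every control and 13, 38, 9 and 63 in shCuff. These 3 bins and U:5630001 were the 4 bins of the 309 with reads in no control and in all 4 shCuff libraries. Their poly(A) share, the poly(A) RPM in percent of poly(A) plus total RPM in the replicate 1 set, was 52.9% for U:5630001 but 8.25%, 2.20% and 15.7% for the other 3. Bins this close can lie in one transcript or one repeat, so they are not separate observations.

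Poly(A) RNA singled out other bins. Among bins with at least 50 reads, the 3 highest ratios in poly(A) libraries were in U:913001, U:7749001 and U:9816001. U:7749001 went from 0 to 132 reads in poly(A) RNA and from 0 to 49 in total RNA replicate 1, and held no read in the other 4 libraries. U:913001 went from 1 to 144 in poly(A) RNA and from 0 to 28 in replicate 1, with 0 in both replicate 2 libraries and 2 and 0 in run-on. U:9816001 went from 0 to 110 in poly(A) RNA and from 1 to 20 in replicate 1, with 0 in both replicate 2 libraries and 0 and 9 in run-on. All 3 were high in the 2 shCuff libraries of one library set and absent from total RNA of the other, where they were not detectable below the floor of 3 reads, 0.527 RPM in shWhite replicate 2. Another such bin, U:9074001, chosen after its values were seen, went from 8 to 200 reads in poly(A) RNA and from 0 to 54 in replicate 1. None of these 4 bins passed the edgeR test, with the smallest adjusted p 0.792 for U:9074001. The 3 lowest ratios in poly(A) libraries, among bins with at least 50 reads, all lay in the stretch. U:5298001 went from 19 to 1 reads (ratio 0.0403), U:5294001 from 23639 to 10678 (0.346) and U:5297001 from 4041 to 2067 (0.3915).

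Run-on singled out yet other bins. U:5559001 went from 8 to 251 run-on reads, a ratio of 30.5 (15.22 to 71.33), with 2 and 16 reads in total RNA replicate 1, none in replicate 2 and 0 and 1 in poly(A) RNA. Its neighbour U:5560001 went from 0 to 75 run-on reads, at least 24.3-fold higher, with 4 reads in all other libraries. Both were close to absent from poly(A) RNA, in contrast to U:7749001, U:913001 and U:9816001. The 3 lowest run-on ratios of bins with at least 50 reads were in U:913001, U:1092001 and U:4085001. U:1092001 held 31 run-on reads in the control and 11 in shCuff, a ratio of 0.344 (0.1562 to 0.7042). It held 59 and 52 reads in total RNA replicate 1, 356 and 28 in replicate 2, and 123 and 175 in poly(A) RNA, so the total RNA pairs differed in size. U:4085001 held 6 and 2 run-on reads, 24 and 60 in replicate 1, none in replicate 2 and 7 and 24 in poly(A) RNA.

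Some bins were higher in shCuff in several comparisons at once. Of the 78 bins outside the stretch with at least 50 reads, 19 were at least 2-fold higher in at least 3 of the 4 comparisons (24.4%, against 0.983% of 31444 such bins). U:5945001 held 1 and 12 reads in shWhite and shCuff of total RNA replicate 1, 0 and 23 in replicate 2, 1 and 49 in poly(A) RNA, and 2 and 24 in run-on. Its neighbour U:5946001 held 0 and 16, 0 and 17, 3 and 81, and 0 and 36 in the same order, so every shCuff library lay above its control in both. U:7544001 was the member with the most control reads and held 1 and 9, 11 and 59, 2 and 19, and 19 and 65. Not all had a run-on signal, since U:7459001 held 4 and 24, 0 and 14, and 3 and 58 reads in the RNA pairs but 0 and 2 in run-on. A bin could reach 50 reads through its shCuff reads alone, as U:5630001 did with 239 reads and none in a control. This set was formed after values were seen and was not tested. Both the 24.4% and the 0.983% of the genome are thus a description of bins that passed the filter.

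**Figure D4:**
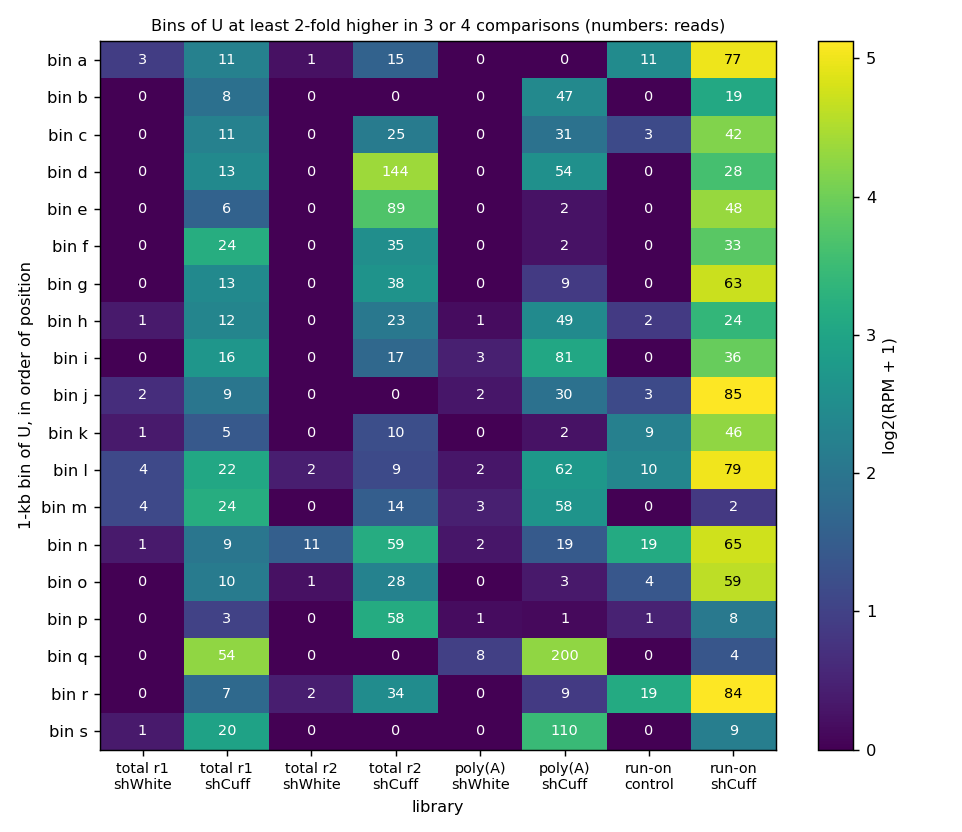
Level, as log2(RPM + 1), of the 19 bins of U outside the stretch with at least 50 reads that were at least 2-fold higher in shCuff in at least 3 comparisons, in the 8 libraries; the number in each cell is the read count. Bins d to g, which start with U:5630001, held reads in all 4 shCuff libraries and in no control library, while bins b, j, q and s (U:294001, U:6560001, U:9074001 and U:9816001) held no read in either total RNA replicate 2 library.

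Sums over longer sections of U differed between genotypes in both directions. U was cut into 101 sections of 100 kb, leaving out the stretch, and 63 of them held at least 20 run-on reads. Of the 63, 29 were at least 2-fold higher in shCuff in run-on (46.0%) and 15 at least 2-fold lower (23.8%), against 14.1% and 5.33% of 1501 such sections of the genome. The shares were 71.9% higher and 2.74% lower for 146 sections of Uextra, and 28.0% and 36.0% for 25 sections of 3RHet. Depth differed widely, since U outside the stretch held 3269 run-on reads in the control and 7866 in shCuff. The euchromatic arms, with 1191 of the 1501 sections, held 2278915 and 2292487. A section with few reads passes 2-fold more easily in either direction, so these shares do not compare sections of equal depth. Sections with an interval above 1 numbered 31, those with an interval below 1 numbered 15, and in 17 the interval held 1. The run-on ratios chose these classes, so only the RNA libraries are informative on them, and the classes were formed after values were seen and were not tested. Each section named from here on was likewise chosen after its values were seen. Bins of a section need not share its direction, since U:4085001, low in run-on, lies in a section that went from 73 to 783 run-on reads.

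In the 15 sections lower in run-on, RNA was lower in shCuff as well. Total RNA replicate 1 held 222 reads in shWhite and 38 in shCuff, a ratio of 0.195 (0.1343 to 0.2757), with 14 of the 15 sections lower. Replicate 2 held 130 and 48 reads, a ratio of 0.286 (0.201 to 0.4011), with 12 lower. Poly(A) RNA held 60 and 42 reads, a ratio of 0.536 (0.3523 to 0.808), with 14 lower, and 85.71% of its shCuff reads lay in 1 section. These were thinly covered sections, with 3.90 reads per covered bin over the 8 libraries. The section U:3500001-3600000 went from 36 to 1, from 38 to 1 and from 8 to 0 reads in total RNA replicate 1, replicate 2 and poly(A) RNA, and from 82 to 16 in run-on. U:2000001-2100000 went from 24 to 0, from 8 to 2 and from 2 to 0, and from 68 to 6 in run-on. Lower total RNA was not seen in these sections alone. In the 17 sections whose run-on interval held 1, the total RNA ratios were 0.707 (0.5782 to 0.8623) and 0.399 (0.3445 to 0.4624), with 13 and 10 of 17 lower, and the poly(A) ratio was 1.55 (1.332 to 1.812).

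In the 31 sections higher in run-on, RNA was higher in shCuff in the sum, and covered bins held 35.4 reads each. Total RNA replicate 1 held 485 and 879 reads, a ratio of 2.06 (1.844 to 2.309), with 21 sections higher and 8 lower. Replicate 2 held 1344 and 3079 reads, a ratio of 1.77 (1.664 to 1.893), with 20 higher and 5 lower. Poly(A) RNA held 851 and 1853 reads, a ratio of 1.67 (1.536 to 1.809), with 23 higher and 6 lower. The section U:1100001-1200000 held 84.08% of the control reads of replicate 2. Without it the ratios were 2.94, 6.18 and 4.01.

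The start of U showed both directions side by side. The 2 sections from U:100001 to 300000 went from 481 to 2646 run-on reads, a ratio of 5.34 (4.844 to 5.898), and held 33.64% of the shCuff run-on reads of U outside the stretch. Their reads went from 38 to 169 and from 70 to 403 in total RNA and from 17 to 128 in poly(A) RNA, with ratios of 5.06, 4.46 and 5.76. Next to them, U:300001-400000 went from 103 to 3 run-on reads, from 23 to 2 and from 27 to 23 in total RNA, and from 5 to 0 in poly(A) RNA. The 2 longest runs of adjacent bins with at least 10 reads lay in the higher portion. The run U:162001-179000 (17 bins) went from 136 to 569 run-on reads, and U:189001-203000 (14 bins) from 46 to 313. Poly(A) RNA held only 4 reads in each genotype in the longer run and 2 and 7 in the other, while total RNA went from 16 to 84 and from 4 to 13 in replicate 1, and from 18 to 83 and from 8 to 67 in replicate 2.

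The next longest run, U:1177001-1190000 (13 bins), was read in all 8 libraries and differed little between genotypes in RNA. Total RNA held 223 and 214 reads in replicate 1 and 1120 and 1368 in replicate 2, and poly(A) RNA held 645 and 769. The ratios were 1.09 (0.9011 to 1.323), 0.946 (0.8736 to 1.025) and 0.912 (0.8207 to 1.015), and in run-on, with 317 and 566 reads, 1.73 (1.508 to 1.995). The run-on interval alone lay above 1. A shorter run, U:4022001-4029000 (7 bins), chosen after its values were seen, split the total RNA pairs instead. It held 26 and 31 reads in replicate 1 (ratio 1.36, 0.7796 to 2.379) but 26 and 373 in replicate 2 (ratio 11.1, 7.463 to 17.24), and 46 and 713 in run-on (ratio 15.05). The large ratios were those of 1 library set, and in poly(A) RNA, of the other set, the ratio was 1.79 (1.288 to 2.504).

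**Figure D5:**
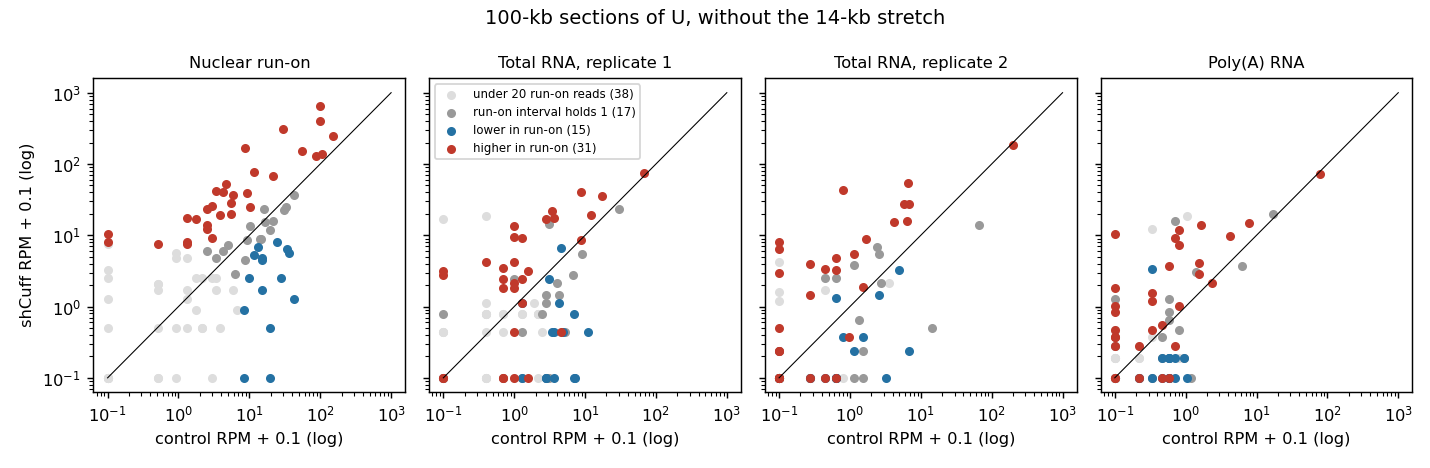
RPM + 0.1 (log axes) of each of 101 sections of 100 kb of U in shCuff against control, 1 panel a comparison, coloured by the run-on interval (red above 1 in 31 sections, blue below 1 in 15); the line marks equal levels. Most blue sections also lie below the line in total RNA and poly(A) RNA, with 14, 12 and 14 of 15 lower, and most red ones above it, with 21, 20 and 23 of 31 higher.

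Detection differed between the libraries for many of the 309 bins. No control library read 49 of them (15.9%, against 5.38% of all bins with at least 10 reads), and no shCuff library read 25 (8.09%, against 1.35%). Both shares were above those of the genome, but the 309 bins were more thinly covered. Of them 78 held at least 50 reads, against 31444 of the 56644 bins of the genome. A bin with few reads is more easily missed by a group of libraries, so no share in this paragraph compares bins of equal depth. Run-on alone read 58 bins (18.8%, against 11.3%). Among these, U:8006001, chosen after its values were seen, held 259 run-on reads in the control and 346 in shCuff, a ratio of 1.30 (1.101 to 1.53), and no read in the 6 RNA libraries. U:195001, chosen in the same way, held 54 run-on reads in shCuff and none elsewhere. Reads in all 8 libraries were found in 18 of the 309 bins.

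RNA from U outside the stretch was poor in poly(A) RNA in both genotypes. Its poly(A) share was 31.3% (29.5 to 33.1) in shWhite and 38.0% (36.4 to 39.6) in shCuff, where 50% means equal RPM in both kinds of library. The euchromatic arms stood at 48.4% and 49.3%, and Uextra at 23.6% and 37.3%. The intervals of U did not overlap between genotypes, but each kind of RNA had 1 library a genotype in this set, so the difference has no replicate check. In the rest of the stretch the share went the other way, 56.8% in shWhite and 48.1% in shCuff, and in the abundant bin it was 66.3% and 57.9%.

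Most single bins held too few reads for a poly(A) share. In shWhite, 1 of the 309 bins was at least 2-fold higher in poly(A) than in total RNA (0.324%, against 1.41% of all bins) and 9 at least 2-fold lower (2.91%, against 4.60%). In shCuff, 4 were higher (1.29%, against 1.75%) and 24 lower (7.77%, against 7.57%), close to the genome. The 3 highest bins of U in shWhite, U:5298001, U:5294001 and U:5288001, all lay in the stretch. Of the 3 lowest, U:4085001 had a share of 10.5% in shWhite and 9.74% in shCuff, and U:7532001 had 2.99% and 29.1%, from 1 and 35 poly(A) reads. The third, U:5768001, held no poly(A) read in shWhite and 1 in shCuff, against 5 and 0 reads in total RNA of the same set.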

How the data were processed

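Each deposited file gives 2 values for every 1-kb bin of the dm3 build. Column 6 holds the count of reads per bin as deposited by the authors, whole in the 4 libraries of the first set (total RNA replicate 1 and poly(A) RNA). In the other 4, 1 to 8 bins a library were not whole, so the deposited numbers of this set are taken as estimated counts, rounded to whole reads for the tests. Column 5 holds the authors' RPKM, which equals RPM for a 1-kb bin. Cutadapt and Bowtie 0.12.7 were used with dm3, per the submitters' processing notes. How reads with several matches were placed is not given in the sources used here, and this limits every value of a repeated sequence. The counts carry no strand. The deposited tables hold no annotation of U, and no dm3 sequence or annotation was used here, so no bin is assigned to a gene or a transposon.

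RPM, ratios and exact intervals were computed with Python 3.11.15 and scipy 1.17.1. Total RNA was tested with edgeR 4.0.16 (quasi-likelihood, library totals as scaling, library set as block, Benjamini-Hochberg over all bins tested, threshold 0.05) on bins that averaged 1 RPKM or more. This fit leaves 1 residual degree of freedom among 4 libraries. Deviations of the 2 libraries of a set from their group means correlated at 0.587 over 27388 bins, and the titles put them in one set, so the set number was taken to pair them. On simulated counts for the 27388 bins of this comparison, the test recovered 35 of 100 bins changed by 2 on the log2 scale and 83 of 100 changed by 3, with 6 false calls. The simulation gave all bins the same fixed spread and held no difference between library sets. The real sets did differ, so these rates need not hold for the real libraries. Alternatives used DESeq2 1.42.0, limma 3.58.1 and other filters. Summed U was fitted among 10-kb windows. The remaining 6 of the 14 samples were not analysed here.

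Bins were named by rule. These were the 8 most abundant after the abundant bin, each bin called by edgeR, and, among bins with at least 50 reads, the 3 highest and 3 lowest ratios in run-on and in poly(A) RNA. The 3 highest and lowest poly(A)-to-total ratios in shWhite, the 3 highest run-on control levels and the 3 longest runs of adjacent bins completed the rule. Bins, runs and sections named outside it are said to be chosen after their values were seen. The members and lists were chosen with earlier results of these data known.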

Additional observations from a re-analysis of the deposited data

How the results depend on the processing

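The number of U bins called in total RNA was 1 in the reported edgeR fit, 0 with TMM factors, 0 with library totals without the abundant bin, 2 with no level filter and 2 with a filter of at least 10 reads over the 8 libraries, and 0 to 1 with each library left out. With no level filter and with the filter of 10 reads, the 2 called bins were U:5630001, higher, and U:5295001, lower. DESeq2 and limma each called 1 bin, U:5295001, and DESeq2 gave no adjusted p for U:5630001. Without the block for the library set that pairs the libraries, edgeR called 0 bins of U and 0 of the genome (105 at an unadjusted p under 0.05). The log2 change of summed U without the abundant bin, 0.05 as reported, was -0.0165 without the block and -0.0025 with limma on log2(RPKM + 1), and with each library left out it ran from -2.85 to 2.97. That of U:5295001 ran from -4.58 to 0.27. Every fit with a library left out also dropped the block for the library set. These ranges therefore mix the loss of a library with the difference between the sets. With the stretch left out as well, no setting turned the direction of summed U (0.01 to 0.51) and none called it. Ratios of U without the abundant bin were 0.982, 1.09, 0.699 and 1.54 in total RNA replicates 1 and 2, poly(A) RNA and run-on. They were 1.32, 1.32, 1.78 and 2.34 without the stretch, and 0.950, 1.16, 0.625 and 1.63 without the next most abundant bin. With library totals that leave out the abundant bin, the ratio of replicate 1 was 1.00 (1.003). The median log2 ratio of U bins with at least 50 reads was 0.21, 0.0837, 0.0144 and 1.97 in the same order, and the median run-on ratio of bins with at least 1 read was 0. The median poly(A)-to-total log2 ratio in shCuff was -0.32 for bins with at least 50 reads. Without the 2 sections from 100001 to 300000, the ratios of the sections higher in run-on were 1.81 and 1.63 in the total RNA replicates. The cause was not tested in any of these. Alternatives that leave out the stretch or sections were chosen after seeing the data. Depth limits most bins of U, since 1131 of the 1453 covered bins held fewer than 10 reads over 8 libraries.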
